A study of Mus musculus with 4 samples.

Results

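Colony-stimulating factors, interleukin-3, interleukin-2, interleukin-10 and the IL-6 family cytokines made by lymphocytes were examined in lung group 2 innate lymphoid cells (ILC2s). The cells came from mice with and without a conditional deletion of Nrp1, the neuropilin-1 gene. The 8 genes Csf2, Il3, Il2, Csf1, Il6, Lif, Osm and Il10 were chosen by name, and each had 1 row among the 38697 genes of the authors' deposited table. The knockout (KO) group was R5/+ Nrp1f/f and the wild-type (WT) group was R5/+, both C57BL/6 mice treated with bleomycin, a drug that injures the lung. There were 2 samples per genotype, each pooled from 3 to 4 mice. Both genotypes carry R5, an allele at the Il5 locus that combines a reporter with Cre recombinase, so floxed Nrp1 is deleted in cells that have switched on Il5. The labels give no age, sex, dose or time after bleomycin. Nothing in them says that the pools were separate experiments, so p-values measure the spread between these pools only.

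These cytokines act on haematopoietic cells, among others. GM-CSF (Csf2), IL-3 and IL-5 signal through receptors that share a beta chain, and in the lung GM-CSF sustains alveolar macrophages and activates myeloid cells. M-CSF (Csf1) acts on macrophages through its own tyrosine kinase receptor, and IL-2 drives lymphocyte growth, that of ILC2s included. IL-6, LIF and oncostatin M (Osm) signal through the shared chain gp130 to STAT3, and IL-10 also signals through STAT3 but restrains inflammation. Many of the messages are short-lived because AU-rich elements after the coding region recruit decay proteins of the Zfp36 family. A classic demonstration that such an element destabilises a message used that of human GM-CSF.

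Motifs of AU-rich elements were searched after the stop codon, a sequence feature that was not used to choose the 8 genes. At least 1 copy of the pentamer ATTTA lay after the stop codon in each of the 8 GENCODE M21 coding transcripts, as it did in 65.2% of 15207 tested coding genes. The longer TTATTTATT, each copy of which contains the pentamer, was found in Csf2, Il2 and Lif and in 7.07% of tested coding genes. Csf2 held 4 copies of it, and 4 or more were found in 0.204% of tested coding genes. Both motifs were searched on the transcribed strand only, as they act in RNA. The stretches of 30 bases with the most pentamers are given 5′ to 3′ as DNA letters from GENCODE M21, with each ATTTA in capitals. They are printed for Csf2, Il2 and Lif, and for Il3 as the neighbour of Csf2. Of the printed stretches, that of Csf2 alone holds TTATTTATT in full, as those of Il2 and Lif were placed by the pentamer. Those of Csf1, Il6, Osm and Il10, which like Il3 had no copy of TTATTTATT, are not printed. In mm10 they lie at chr11:54247324-54247353 (minus strand) for Csf2, chr11:54265305-54265334 (minus) for Il3, chr3:37121039-37121068 (minus) for Il2 and chr11:4272414-4272443 (plus) for Lif.
Csf2: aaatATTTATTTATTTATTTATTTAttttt
Il3: ttatgccatcaaatgtcttatcaATTTAtc
Il2: tATTTATTTAaatATTTAactttaATTTAt
Lif: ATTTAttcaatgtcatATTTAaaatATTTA
Csf2 thus carried 5 overlapping pentamers in a row, and 9 in all within the 317 bases after its stop codon. Il3, its neighbour on the chromosome, carried 1 in all in the 101 bases annotated after its stop codon. Any Il3 sequence beyond that annotated end was not searched, so the counts of 9 and 1 are not alike in length. Among tested coding genes with a baseMean of at least 1000, the median log2 fold change (KO over WT) was -0.24 with TTATTTATT and -0.25 without it. These medians lay close to each other.

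All values come from the comparison that the authors deposited. BaseMean, the measure of a gene's level, averages its normalized counts across libraries. Because the table is named with WT first, the sign of its log2 fold change was turned, and a positive value stands for a higher level in KO. If the authors divided KO by WT, every direction given here would turn. Nrp1, the deleted gene, was lower in KO at -1.18 ± 0.21 (SE, adjusted p = 1.27e-04) per the authors' deposited table. KO thus stood at 44.2% of WT, so Nrp1 message remained in the KO pools. No column of values per library carried a sample label, so levels are given as genotype means implied by baseMean and fold change, with no value per pool. All 15 ILC2 marker genes were present, with a baseMean of 187 to 41644. Markers of T cells, macrophages, fibroblasts and lung epithelium were also present, and none of the markers found in the table was at 0. In pooled cells, fewer cells of a type and less RNA per cell cannot be told apart.

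The cytokine genes spanned a wide range of abundance. Csf2 was the most abundant of the 8, with a baseMean of 6370 per the authors' deposited table, and ranked 309 among the 19193 genes that have an adjusted p. Lif followed at 4657, Csf1 at 1391, Il2 at 724 and Osm at 527 per the authors' deposited table. Il6 had a baseMean of 283, Il3 of 113 and Il10 of 14.6 per the authors' deposited table. Csf2 and Lif thus stood well above the other 6 in counts, and Il10 was barely detected.

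Counts grow with transcript length, so levels between genes were compared per kilobase of exon. On that scale Csf2 stood at 7962 normalized counts per kb, above 99.6% of tested genes. This placed it between Areg, the most abundant of the related cytokine genes, at 11556 per kb and Il5, the cytokine that marks these cells, at 4406 per kb. Both genotypes carry R5 at the Il5 locus, and its effect on the measured level of Il5 was not tested. Il13 and Il4, the other type 2 cytokines, stood at 155 and 179 per kb. After Csf2, the order was Lif at 1071, Il2 at 633, Csf1 at 263, Osm at 232, Il3 at 179, Il6 at 117 and Il10 at 11.1 per kb. Csf1, whose exons cover 5281 bp, fell below Il2 once length was counted. The spread between pools is not available for these levels, so neighbours in this order were not tested against each other.

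**Figure D1:**
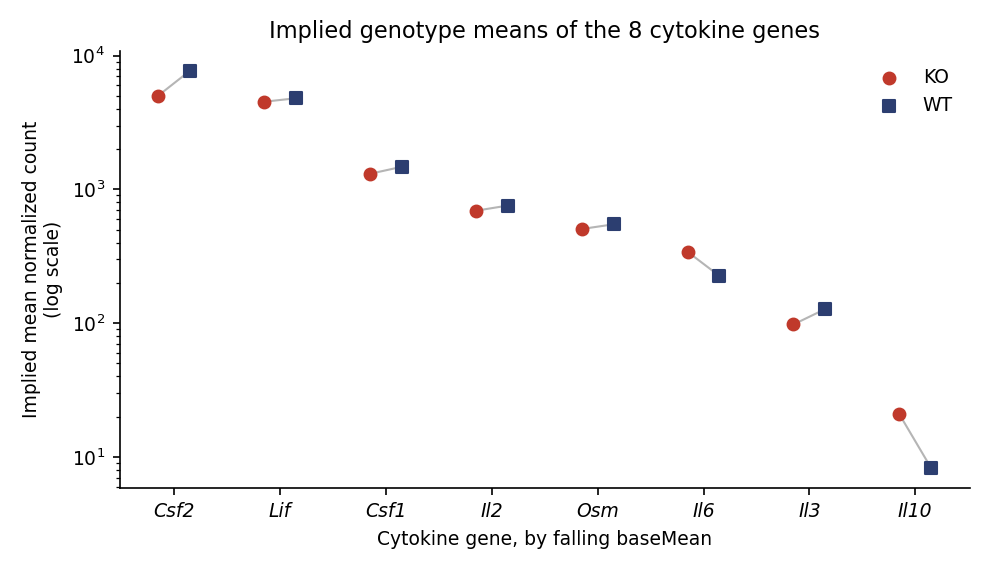
Implied mean normalized count (log scale) of each cytokine gene in KO (circles) and WT (squares), ordered by baseMean. KO lies below WT for 6 genes, 4 of which turn above WT when centred on abundant genes, and above it for Il6 and Il10; Csf2 is the only gene whose difference passed the test. The plot has no error bars because no values per pool could be used.

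Among the growth-factor cytokines, Csf2 was lower in KO. Its implied mean was 5023 normalized counts in KO and 7717 in WT, so that KO stood at 65.1% of WT. The log2 fold change was -0.62 ± 0.16 (SE) with an adjusted p of 0.0335 (unadjusted p = 9.02e-05) per the authors' deposited table. The 95% interval from that error ran from 52.5% to 80.7% of WT. It was the only one of the 8 genes to pass an adjusted p under 0.05, against a background of 0.099% of tested genes called lower and 0.453% called higher. At an unadjusted p under 0.05 it was also the only one of the 8, beside 13.6% of tested genes. Of tested genes with a baseMean of at least 1000, 0.565% were called lower, and 21 of 2480 (0.847%) had a log2 fold change at or below that of Csf2. The smallest change that would have passed at the error of Csf2 was 0.58, just under the one measured.

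The median of abundant genes lay below 0, and this touches the result for Csf2. The median log2 fold change was -0.25 for tested genes with a baseMean of at least 1000 and 0.08 for all tested genes. Centred on those abundant genes, which adds 0.25 to every value, Csf2 stood at -0.37 (unadjusted p = 0.0200) and did not pass (adjusted p = 0.242). In that setting 0 of the 8 genes passed, beside 0.0104% of tested genes called lower and 1.17% called higher. Against the median of the 200 genes on either side of it in baseMean it stood at -0.35 (adjusted p = 0.900). Without the filter on low counts its adjusted p was 0.0675. The direction was lower in KO in each of these settings, and the call held where adjustment ran over coding genes only or over genes with a baseMean of 50 or more.

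Other lymphocytes make GM-CSF too. The summed level of T cell markers was lower in KO, but only through the 4 most abundant of the 12. The summed implied level of 12 T cell markers was 6759 normalized counts in KO and 9282 in WT (72.8%). The 4 most abundant of them, Trbc1, Trbc2, Bcl11b and Cd3g, made up 6502 of the sum in KO and 9052 in WT. Their baseMeans ran from 963 to 2938, and the values do not show which cells these 4 transcripts came from. The other 8, of which Trac was the most abundant at a baseMean of 114, summed to 257 in KO and 230.4 in WT. Of these, Cd4, Cd5, Cd8a, Cd8b1 and Foxp3, named after their values were seen, had values above 0, and Cd8a was not among the genes tested. Trac, Cd3e and Cd3d had values below 0, at -0.26, -0.44 and -0.02. The genes above 0 had a baseMean of at most 17.7. Centred on genes of like baseMean, Cd8b1 stood at 1.30, but Cd4, Cd5 and Foxp3 stood at -0.31, -0.49 and -0.80. Of the 11 T cell markers that were tested, 7 were below 0, and Cd3g, which encodes a CD3 chain, was called lower. Cd3g was not called when centred on abundant genes (adjusted p = 0.103) or on genes of like baseMean (0.385). The summed level of the 15 ILC2 markers was 159064 in KO and 190455 in WT (83.5%). Of these 15, 14 were below 0, with a median of -0.34, and 9 were below 0 when centred on abundant genes. At an unadjusted p under 0.05 there were 8 of 15 (53.3%), 7 of them lower, beside 13.6% of all tested genes. None passed the authors' deposited test. The part of T cells or ILC2s in the result for Csf2 was not tested. An antisense gene, Gm12223, overlaps Csf2, and the library kit is not described as marking strand, so reads of the overlap cannot be told apart. Gm12223 had a baseMean of 27.2 per the authors' deposited table, far below that of Csf2.

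Il3, which encodes a growth factor for mast cells, basophils and early progenitors, lies 15635 bp from Csf2 on the same strand (chr11:54265303-54267277 and chr11:54247271-54249667, mm10). Its implied mean was 97.8 in KO and 128 in WT. The log2 fold change was -0.38 ± 0.49 (adjusted p = 0.782) per the authors' deposited table, so the interval ran from 39.5% to 149% of WT. With this error a log2 change under 1.78 would not have passed, so a change in Il3 of the size seen in Csf2 was not detectable.

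Il2 had an implied mean of 692 in KO and 756 in WT, with a log2 fold change of -0.13 ± 0.26 (adjusted p = 0.877) per the authors' deposited table. Its interval was 63.9% to 131% of WT. Adad1 overlaps Il2 on the other strand and had a baseMean of 110 per the authors' deposited table, so some reads cannot be assigned with certainty. Csf1 had an implied mean of 1307 in KO and 1475 in WT, at -0.17 ± 0.21 (adjusted p = 0.771) per the authors' deposited table. Its interval was 66.5% to 118% of WT. Neither gene passed, and both values were above 0 when centred on abundant genes, at 0.12 for Il2 and 0.08 for Csf1.

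Lif was nearly as abundant as Csf2 in counts and is the best measured of the genes that did not pass. Its implied mean was 4518 in KO and 4796 in WT (94.2%), and the log2 fold change was -0.09 ± 0.19 (adjusted p = 0.886) per the authors' deposited table. The interval ran from 73.0% to 122% of WT. Centred on abundant genes, Lif stood at 0.17. Osm had an implied mean of 506 in KO and 548 in WT, at -0.12 ± 0.28 (adjusted p = 0.897) per the authors' deposited table, and 0.14 when centred. Its interval was 63.3% to 135% of WT.

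Of Il6, Lif and Osm, Il6 was the one with a value above 0 as deposited, while Lif and Osm turned above 0 in both centred settings. Its implied mean was 341 in KO and 225 in WT (151%), and the log2 fold change was 0.60 ± 0.37 (adjusted p = 0.483, unadjusted p = 0.107) per the authors' deposited table. It did not pass, and its interval ran from 91.5% to 251% of WT. In size this value was close to that of Csf2, with the opposite sign, but its error was wider and a change under 1.35 would not have passed. Centred on abundant genes it stood at 0.85 (unadjusted p = 0.0220, adjusted p = 0.255). Among the other 7 genes, Il6 was the one whose 95% interval did not overlap that of Csf2. Differences between genes were not tested.

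Il10 had an implied mean of 20.9 in KO and 8.28 in WT. The log2 fold change of 1.33 ± 1.34 (adjusted p = 0.707) per the authors' deposited table has an interval from 41.0% to 1549% of WT, and no change under 4.86 would have passed. Genes of like baseMean had a median log2 fold change of 1.57, so Il10 lay slightly below its neighbours in abundance, at -0.24 relative to them. These counts give no usable direction for Il10.

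**Figure D2:**
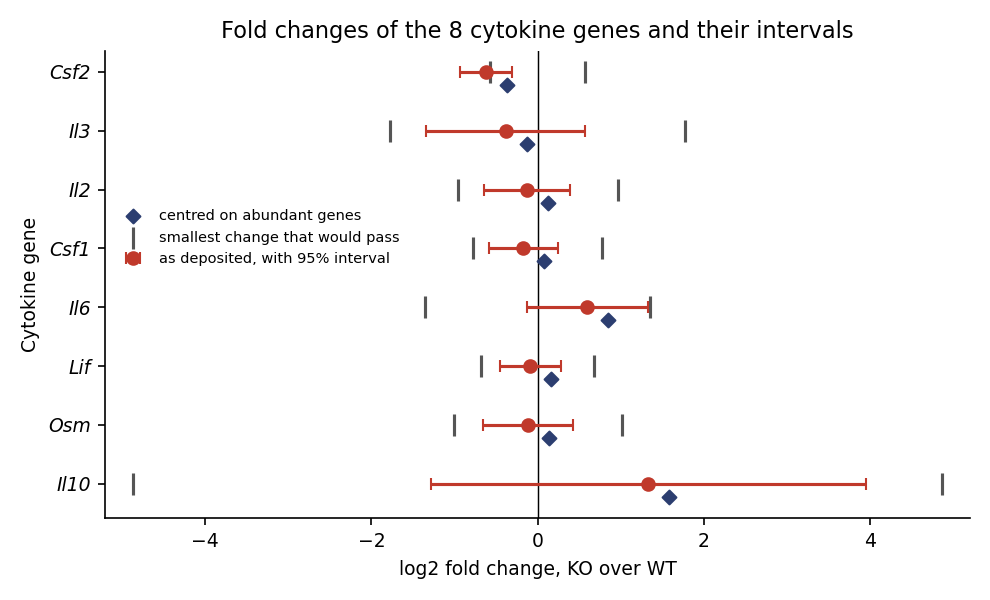
Log2 fold change (KO over WT) of each cytokine gene with its 95% interval from the deposited standard error (circles), the value centred on abundant genes (diamonds) and the smallest change that would have passed (vertical marks). Csf2 at -0.62 is the one circle outside its marks, and its diamond at -0.37 lies inside them; 7 of the 8 intervals include 0.

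Stromal, epithelial and myeloid cells are also sources of IL-6. Summed marker levels were higher in KO for fibroblasts, lung epithelium and macrophages, but lower for the other myeloid lists given below. The summed implied level of 12 fibroblast markers was 10605 in KO and 6492 in WT (163%), and all 12 were above 0. For 12 lung epithelial markers the sums were 15394 in KO and 9166 in WT (168%), and 9 of 11 tested were above 0. The 12 macrophage and monocyte markers summed to 10927 in KO and 9688 in WT (113%), and all 10 tested were above 0. Lyz2, at a baseMean of 8981, was by far the most abundant of the 12. The 10 endothelial markers summed to 4358 in KO and 3356 in WT, and the 10 markers of B and plasma cells, which can make IL-10, to 5844 in KO and 5408 in WT. No gene of these 5 lists passed the authors' deposited test at an adjusted p under 0.05. At an unadjusted p under 0.05 there were 0 fibroblast, 3 epithelial, 1 macrophage, 3 endothelial and 2 B or plasma cell genes, beside 13.6% of all tested genes. All had values above 0 except Ighm, 1 of the 2 B and plasma cell genes, which was below 0. Of the other myeloid lists, neutrophil markers summed to 162 in KO and 317 in WT (51.0%), and 4 of 5 tested were below 0, with a median of -0.24. Mmp9, at a baseMean of 126 and a log2 fold change of -1.82, was the most abundant of them. Dendritic cell markers summed to 2651 in KO and 3252 in WT (81.5%), with 3 of 9 tested below 0. Their median log2 fold change was 0.47, so the sum and the median differed in direction. Mast cell and basophil markers summed to 12149 in KO and 13802 in WT (88.0%), with 2 of 5 tested below 0. Here too the median, at 0.19, was above 0 while the sum was lower in KO. Kit, at a baseMean of 12411, was by far the most abundant of the last list. None of these genes passed. The part of all these cell types in the values of Il6 and Il10 was not tested.

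**Figure D3:**
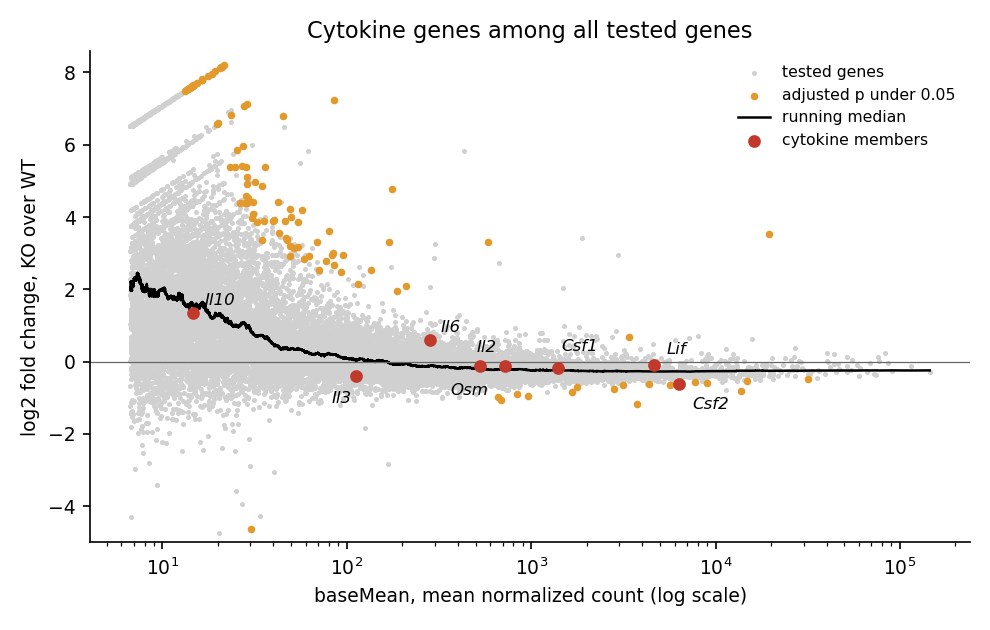
Log2 fold change (KO over WT) of every tested gene against its baseMean (log scale), with genes past an adjusted p of 0.05 in orange, the running median as a line and the 8 cytokine genes in red. The running median is above 0 for rare genes and falls to about -0.25 for abundant ones; Csf2 lies below the line, Il6 above it and Il10 close to it.

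None of the genes around Csf2 was called, and their errors were too wide for a change of its size to pass. Within 200 kb of Csf2 and Il3, 9 other genes were tested, 4 with values below 0 and 5 above. None passed the authors' deposited test, beside 0.552% of all tested genes called in either direction (0 at an unadjusted p under 0.05, beside 13.6%). Their median baseMean was 9.26, and the smallest standard error among them, that of Fnip1, was 0.22 against 0.16 for Csf2. The most abundant of them was Fnip1, which encodes folliculin-interacting protein, at -0.10 ± 0.22 (adjusted p = 0.892) per the authors' deposited table. P4ha2, a collagen prolyl hydroxylase subunit, stood at -0.14 ± 0.36 (0.902) per the authors' deposited table. Osm and Lif lie 16530 bp apart. None of 11 other tested genes within 200 kb of them passed, beside the same 0.552% (0 at an unadjusted p under 0.05, beside 13.6%). Tbc1d10a, the most abundant of these and a Rab GTPase-activating protein, stood at -0.43 ± 0.23 (adjusted p = 0.398) per the authors' deposited table.

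**Figure D4:**
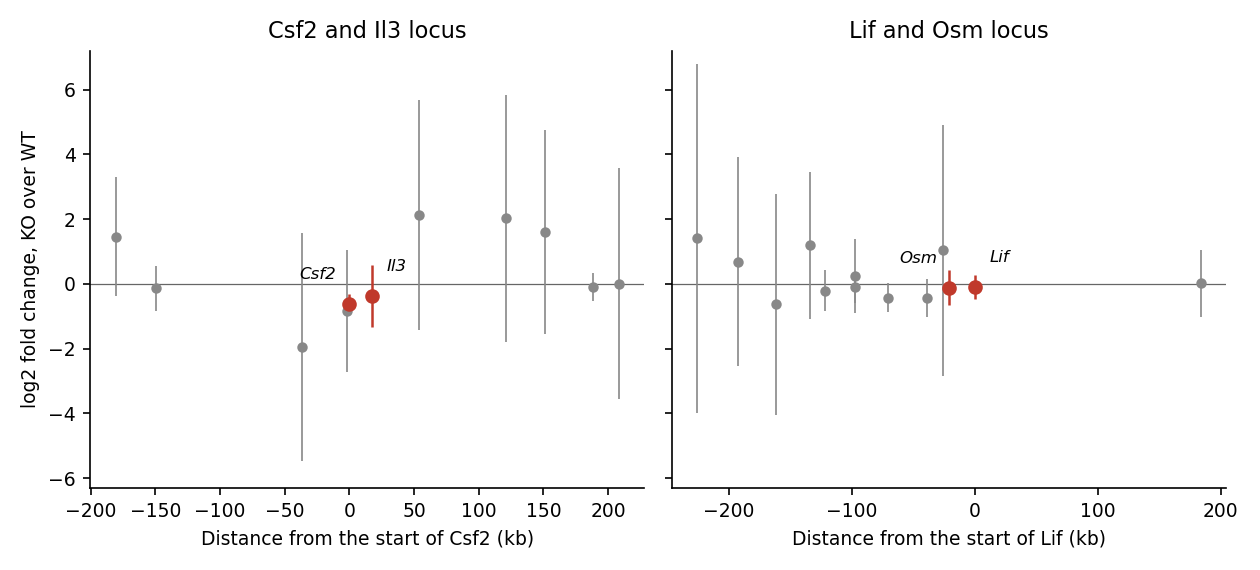
Log2 fold change (KO over WT) with 95% intervals of the tested genes within 200 kb of the Csf2 and Il3 pair (left) and the Lif and Osm pair (right), by distance in kb from the start of Csf2 or Lif. The cytokine genes are in red, the others in grey; Csf2 is the only gene in either panel that passed the test.

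Receptor chains for these cytokines were measured in the same cells. Of 15 chains, 1 was called lower in KO and none higher, beside 0.099% of tested genes called lower and 0.453% called higher. At an unadjusted p under 0.05 there were 3 of 15 (20%), 2 of them lower, beside 13.6% of all tested genes. The median log2 fold change of the list was 0.01, against 0.08 over all tested genes. Il10ra, the ligand-binding chain of the IL-10 receptor, had an implied mean of 6294 in KO and 9261 in WT, at -0.56 ± 0.15 (adjusted p = 0.0423) per the authors' deposited table. It was not called when centred on abundant genes or without the filter on low counts. The IL-2 receptor chains were the most abundant of the list. Il2rb stood at -0.20 ± 0.16 (adjusted p = 0.627), Il2ra at -0.19 ± 0.19 (0.719) and Il2rg, the common gamma chain, at -0.42 ± 0.17 (0.216) per the authors' deposited table. By contrast, the chains for GM-CSF itself were rare, and they are named here after their values were seen. Csf2ra had a baseMean of 216 and Csf2rb of 105 per the authors' deposited table, and neither passed.

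Signal transducers below these receptors did not pass the authors' deposited test. At an unadjusted p under 0.05 there were 6 of 18 (33.3%), 5 of them below 0, beside 13.6% of all tested genes. Of the 18 JAK, STAT and feedback genes 13 were below 0, with a median of -0.28, and 9 were below 0 when centred on abundant genes. Jak1 stood at -0.41 ± 0.15 (adjusted p = 0.175), Cish, a feedback inhibitor induced by STAT5, at -0.24 ± 0.16 (0.532) and Stat3 at -0.37 ± 0.16 (0.256) per the authors' deposited table. Jak2, the kinase bound to the GM-CSF receptor, stood at -0.09 ± 0.16 (0.856) per the authors' deposited table. Socs3, a feedback inhibitor of gp130 signalling that is named after its value was seen, stood at 0.43 ± 0.19 (adjusted p = 0.275) per the authors' deposited table. Centred on abundant genes, Socs3 stood at 0.68 and passed (adjusted p = 0.0414), but against genes of like baseMean it stood at 0.67 and did not pass (0.175).

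Of 25 related cytokine genes 24 were in the table and 21 were tested. None passed the authors' deposited test (2 at an unadjusted p under 0.05, or 9.52% beside 13.6% of all tested genes), 9 were below 0 and 12 above, and the median was 0.05. Ltb, which encodes lymphotoxin beta, had the smallest p of the 4 most abundant, at -0.56 ± 0.22 (adjusted p = 0.199) per the authors' deposited table. Flt3l, a growth factor for dendritic cells, stood at -0.28 ± 0.22 (0.612) per the authors' deposited table. Areg and Il5 stood at -0.35 ± 0.17 and -0.11 ± 0.16 per the authors' deposited table. KO was thus at 78.6% of WT for Areg and 92.4% for Il5, beside 65.1% for Csf2, and these 3 values were not tested against each other.

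Regulators of cytokine transcription did not pass either, and 5 of 27 (18.5%) had an unadjusted p under 0.05, beside 13.6% of all tested genes. Of these 27 genes, 22 were below 0 and the median was -0.26, close to that of abundant genes, and 15 were below 0 when centred. The AP-1 subunits Junb and Fos, which act with NFAT and NF-kB at cytokine promoters, stood at -0.12 ± 0.13 (adjusted p = 0.738) and 0.14 ± 0.14 (0.701) per the authors' deposited table. Bhlhe40, a factor that supports GM-CSF and restrains IL-10 in mouse T cells, stood at -0.19 ± 0.16 (0.636) per the authors' deposited table. Gata3, the lineage factor of ILC2s, stood at -0.34 ± 0.14 (0.211) per the authors' deposited table. Centred on abundant genes, 1 of the 27 passed, the AP-1 subunit Fosb at 0.59 (adjusted p = 0.0426), named here after its value was seen. It did not pass against genes of like baseMean (0.60, adjusted p = 0.157).

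Factors that control the stability of such messages were tested as 17 genes. None passed the authors' deposited test (0 at an unadjusted p under 0.05, beside 13.6% of all tested genes). Of the 17, 10 were below 0 and 7 above, and the median was -0.11. Zfp36, which encodes tristetraprolin and binds the AU-rich stretch printed above for Csf2, stood at 0.25 ± 0.14 (adjusted p = 0.422) per the authors' deposited table. Its relatives Zfp36l1 and Zfp36l2 stood at -0.29 ± 0.16 (0.426) and -0.15 ± 0.24 (0.842) per the authors' deposited table. Arid5a, which stabilises Il6 messages, stood at -0.27 ± 0.16 (0.462) per the authors' deposited table. Centred on abundant genes, Zfp36 stood at 0.50 and passed (adjusted p = 0.0358), the one gene of the list to do so. Against genes of like baseMean it stood at 0.49 and did not pass (adjusted p = 0.157).

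**Figure D5:**
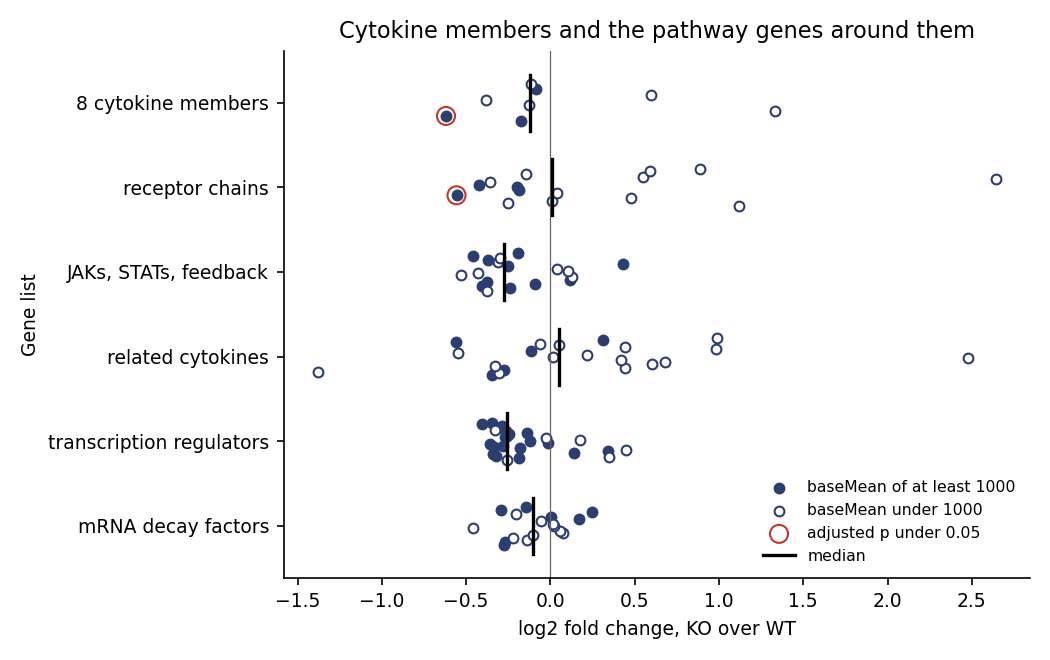
Log2 fold change (KO over WT) of the 8 cytokine genes and of the tested genes of 5 pathway lists, filled where baseMean is at least 1000, with genes past an adjusted p of 0.05 ringed and each list's median as a bar. Csf2 and Il10ra are the 2 ringed genes, and the medians lie between -0.28 and 0.05.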

How the data were processed

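RNA from sorted lung ILC2s was profiled in 2 KO and 2 WT pools. Per the labels' protocols, the SMART-Seq HT kit gave full-length cDNA, which a TruePrep kit turned into libraries. The submitters' processing notes name HISAT2, Cufflinks and the mm10 build without saying what each did; no source used here gives the counter or annotation release. Per the file headers, which are those of DESeq2 output, the authors deposited for each gene baseMean (a signal, the mean normalized count), the log2 fold change, the log2 standard error, the Wald-type statistic (a score) and the raw and adjusted p-value. The deposited comparison was taken to rest on the 4 samples. Another 8 columns hold values per library under codes that no sample label contains, and how these columns relate to the samples is not known. They were seen on screen when the file was opened but enter no result, so depth per library is unknown, and the planned count model, leaving out replicates and a replicate block could not be run.

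The deposited statistic equals log2 fold change over standard error within 5.35e-08, and Benjamini-Hochberg adjustment over 19193 genes with a baseMean of at least 6.71 gives the deposited adjusted p within 3.96e-05. Computed here, in Python 3.11.15 with pandas 2.3.3 and SciPy 1.17.1, were the turned sign, genotype means implied by baseMean and fold change with equal weight of the genotypes, intervals of 1.96 standard errors, and adjusted p under 6 other settings. Intervals cover the deposited error only. The smallest change that would pass is the standard error times 3.64, the smallest absolute statistic called. The adjustment and centring steps were tested on simulated data. Coordinates, exon lengths and transcripts are from GENCODE M21 (mm10), where 38388 of 38697 identifiers had a record; 1 coding transcript per gene was used, that with the longest coding region. Where a symbol had several rows the most abundant was used.

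The members and lists were chosen with earlier results of these data known, so no list was tested. All members are named; from other lists, genes past the threshold and up to 4 of highest baseMean, with exceptions marked.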

Additional observations from a re-analysis of the deposited data

How the results depend on the processing

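No paired analysis was possible because no column of values per library carries a sample label; for the same reason no replicate was left out. Filters, coding genes only and thresholds leave the log2 values as they are, so direction could turn only in the 2 centred settings. There, of 16 comparisons of a member, 9 turned direction, 2 lost the call and 5 kept both. Csf2 lost its call at -0.62 without a filter (adjusted p = 0.0675), at -0.37 centred on abundant genes (0.242) and at -0.35 centred on genes of like baseMean (0.900), and over its alternatives the adjusted p ran from 0.0335 to 0.900. The first change follows from the larger number of genes adjusted for; for the others a median of -0.25 or -0.27 was taken off the value by construction, and the cause of that median was not tested. Values that turned direction, centred on abundant genes and then on genes of like baseMean, were Il2 at 0.124 and 0.0905, Csf1 at 0.0779 and 0.0626, Lif at 0.165 and 0.185 and Osm at 0.135 and 0.0704; Il10 turned in the second setting, to -0.24. Members past the threshold numbered 1 as deposited and 0 in those 3 settings. Over all genes, 87 were higher, 19 lower and 106 in all as deposited; 21, 2 and 23 without a filter; 22 higher and 35 in all where baseMean was 50 or more; 39 higher and 56 in all over coding genes only; 225, 2 and 227 centred on abundant genes; 19, 2 and 21 centred on genes of like baseMean; and 266, 40 and 306 at an adjusted p under 0.1. Of the 106, 89 were also called when centred on abundant genes and 18 when centred on genes of like baseMean. In the receptor list 1 gene was called as deposited and 0 without a filter, where baseMean was 50 or more and in both centred settings. In the JAK and STAT, transcription and mRNA decay lists 0 genes were called as deposited and 1 each centred on abundant genes, but 0 centred on genes of like baseMean. Low counts limit Il10 and Il3 most, with standard errors of 1.34 and 0.49.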
